A study of Homo sapiens with 10 samples.

Results

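The machinery that carries newly made proteins into and out of the endoplasmic reticulum (ER) was followed through hepatic differentiation of human embryonic stem cells. Its genes were chosen by name. Taken was every gene of the deposited table whose symbol begins with SEC, SSR, SPCS, PDIA or TMED and a digit, or with SRPR or SAR1. Also taken were SRP with a number, and COP with A, B, E, G or Z and at most 1 digit, for the COPI coat. A coat subunit with another name, such as ARCN1, was not taken. The rule took 63 of the 12125 genes. H1, an established human embryonic stem cell line, was kept on Matrigel in mTeSR1 and differentiated in serum-free RPMI/B27, followed by a hepatocyte medium, with insulin left out of the B27 supplement only in the first step. The steps were 3 days of Activin A (100 ng/ml), 4 days of BMP2 (20 ng/ml) and FGF4 (30 ng/ml), 6 days of HGF and KGF (20 ng/ml) and 8 days of Oncostatin M (20 ng/ml, without EGF). RNA was sequenced daily from day 0 to day 3, every other day from day 5 to day 13 and on day 21, with 1 library for each of these 10 days. By these durations day 13 closes the HGF and KGF step, although its sample label reads OSM. The labels presume hESCs at the start, then endoderm, hepatoblasts and hepatocyte-like cells, all from this 1 line.

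A secreted protein is recognised by its signal peptide while it is still being made. The signal recognition particle (SRP) brings the ribosome to its receptor at the ER, the Sec61 channel lets the chain through, signal peptidase removes the signal peptide, and protein disulfide isomerases pair its cysteines. COPII-coated vesicles then take the folded protein to the Golgi, with p24 proteins (TMED) as cargo receptors, and COPI-coated vesicles return escaped ER proteins. Hepatocytes depend on this route heavily, since they release albumin, apolipoproteins, fibrinogen and most other plasma proteins.

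The values are GC-normalized scores in whole numbers, not reads. The totals of the libraries lay between 2330948 and 2362740 and their medians at 81 or 82, so sequencing depth cannot be read from them and no counting interval is given. All libraries share a set of values, and a gene with equal values on several days sits on the same step of that shared scale. Changes are differences of log2(value + 1), which understate the change of low genes, and levels are compared only within a gene. A gene was counted as higher or lower at a change of at least 2-fold with a larger value of at least 50. Shares of all genes include genes that never reached 50 and could not be counted, whereas 61 of the 63 genes reached it. This lowers the shares of all genes, and the part of expression level in a difference from them was not tested. No day has a replicate, so no difference carries a p-value. As a measure of spread, days 9 and 11, which share a medium, differed over the 63 genes with an SD of 0.22 on the log2 scale, and the largest difference was 0.50, for SEC23A. These libraries are not replicates, and 5 of 8 red cell genes and 3 of 14 stromal genes were higher at day 11. None of the 63 was counted between those days, against 0.726% of all genes higher and 0.396% lower.

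At day 21 most genes of the vesicle coats and p24 proteins stood above their day 0 levels, whereas the SRP genes stood below, all 6 as deposited and 4 of them under the other scaling given here (SRP54 and SRP68 changed sign). From day 0 to day 21, 22 of the 63 genes were counted as higher and 4 as lower. Of all genes in the table, 19.1% were higher and 21.2% lower over the same days. The share of the machinery counted as higher, 34.9%, lay above that background, and its share counted as lower, 6.35%, below it. The background includes genes too low to be counted, which lowers both of its shares. The median change was 0.51 for the machinery and -0.12 for all genes. Both values rest on the libraries of day 0 and day 21 alone, and with day 13 in place of day 21 the numbers were 13 higher (20.6%, against 15.4% of all genes) and 3 lower (4.76%, against 15.9%). The median differed by complex, at 1.05 for the COPI coat, 1.03 for the COPII coat, 1.01 for the p24 proteins, 0.66 for the disulfide isomerases, 0.56 for the TRAP complex and 0.24 for the Sec61 translocon. It was -0.17 for signal peptidase and -0.48 for the SRP. With median-of-ratios scaling the median of all genes moved by 0.19 over these days, which turned the median of signal peptidase to 0.02 and left the SRP at -0.29. Under that scaling 25 of the genes were higher and 2 lower, with 22.4% of all genes higher and 17.4% lower.

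**Figure D1:**
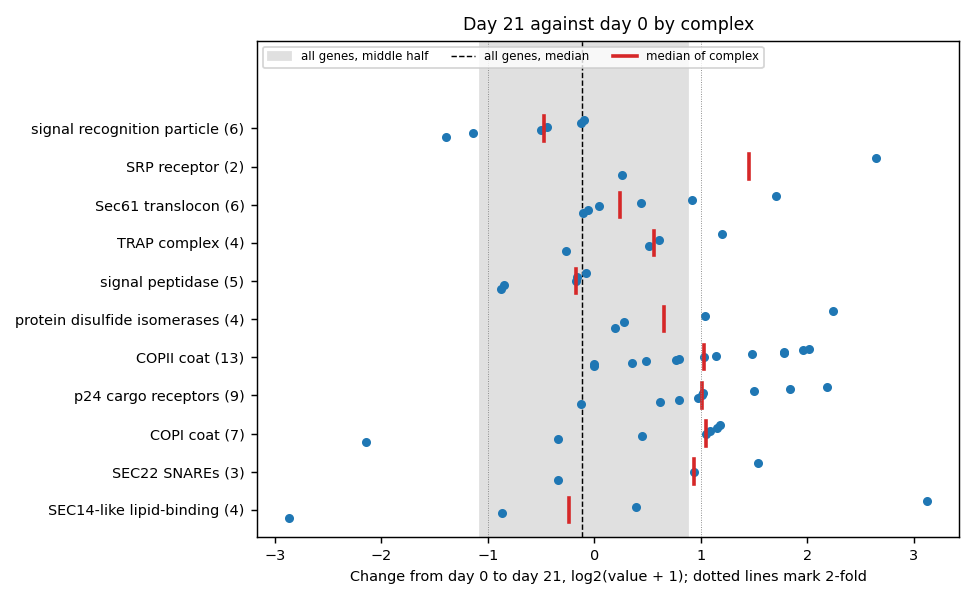
Change from day 0 to day 21 on the log2(value + 1) scale (x axis) for each of the 63 genes (points), arranged by complex with the number of genes in brackets. Red bars are the medians of the complexes, the grey band spans the quartiles of all 12125 genes and the dashed line is their median at -0.12. The COPI, COPII and p24 medians lie near 1, and all 6 SRP genes lie below 0 on this scale, SRP54 and SRP68 changing sign under median-of-ratios scaling.

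Step by step, few of the genes were counted, and the counts stood below the background in every step. From day 0 to day 3, with Activin A, 3 genes were higher (SEC31A, COPB2 and TMED8) and 2 lower (SEC24D and SEC14L5), against 8.17% and 6.68% of all genes. From day 3 to day 7, with FGF4 and BMP2, 4 were higher (SRPRB, TMED9, SEC24A and SAR1A) and 0 lower, against 9.91% and 9.58%. From day 7 to day 13, with HGF and KGF, 2 were higher (TMED3 and SEC14L2) and 0 lower, against 7.08% and 6.02%. From day 13 to day 21, with Oncostatin M, 3 were higher (SEC24A, PDIA5 and SEC31B) and 1 lower (SRP72), against 6.21% and 6.58%. Successive comparisons share a library, so that a high or low value on the shared day enters both. With the neighbouring day 2 in place of day 3, the number higher in the first step was 0. With day 5 in place of day 7 it was 1 in the second step and 4 in the third. The shares of all genes were not computed for these altered steps, so these counts have no background beside them.

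The median gene of the machinery stood 0.17, 0.38, 0.44, 0.42 and 0.51 above day 0 on days 3, 5, 7, 13 and 21, whereas the median of all genes stayed between -0.12 and 0.00. The change from day 3 to day 5 (0.17) and from day 1 to day 2 (0.15) were the largest median steps. Of the 63 genes, 21 (33.3%) had their highest value at day 21, against 18.6% of all genes, and 7 had it at day 0. A highest value of at least 50 was reached by 61 genes, and 36 of them spanned at least 2-fold between their lowest and highest library. Such a span was found for 69.9% of all genes in the table and 57.1% of the machinery.

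**Figure D2:**
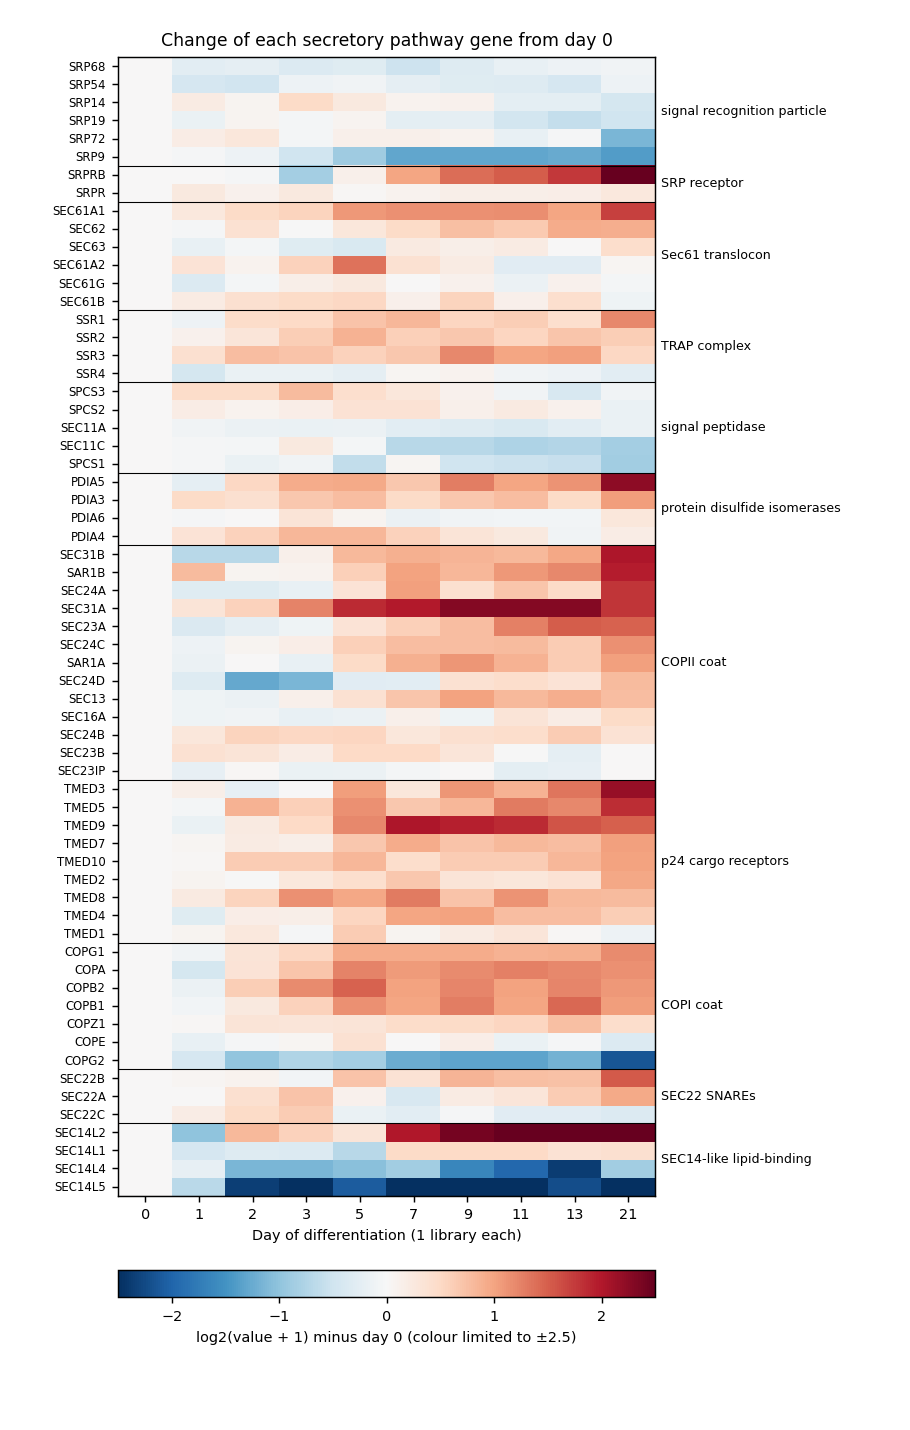
Change of each of the 63 genes from day 0 (colour, log2(value + 1), limited to 2.5 in either direction) in the 10 libraries (columns, day of differentiation), with genes grouped by complex. SRP9, COPG2 and SEC14L5 are blue from day 3 on, and SEC31A, TMED9, SRPRB and SEC14L2 are among the darkest red rows.

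The SRP, which binds signal peptides, had the lowest median change of the complexes at day 21. SRP9, which pauses translation together with SRP14, had values of 1022, 1000, 936, 724, 550, 415, 414, 417, 424 and 390 on days 0 to 21. The fall was spread over days 2 to 7 and came to -1.39 on the log2 scale over the whole course. SRP72, which pairs with SRP68 in the particle, lay between 324 and 450 up to day 13 and was 167 at day 21, a change of -1.11 from day 13 that rests on the day 21 library. SRP14, SRP19, SRP54 (which contacts the signal peptide) and SRP68 spanned less than 2-fold, and their log2 changes from day 0 to day 21 were -0.45, -0.50, -0.12 and -0.09. The changes of SRP54 and SRP68 were below the spread between days 9 and 11 and changed sign under median-of-ratios scaling. A processed copy named SRP9P1 holds 10.5% of the 50-base stretches of the SRP9 transcript in GENCODE release 29, and reads from such stretches can be split between the copies.

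The receptor that takes the SRP to the membrane had partners that took different courses. SRPR, the alpha subunit, which acts as a GTPase with SRP54, had values of 210, 248, 226, 249, 214, 224, 233, 232, 236 and 251. It stayed within 0.26 on the log2 scale over the whole course. SRPRB, the beta subunit, which anchors the alpha subunit in the ER membrane, had values of 76, 76, 74, 42, 83, 152, 203, 218, 260 and 480. Its lowest value was that of day 3, every later library was above the one before it, and the log2 change was 1.83 from day 3 to day 7 and 2.64 from day 0 to day 21, the largest rise of the 63 after that of SEC14L2. In the table, which names no genome build, SRPRB spans 133502877 to 133539525 on chromosome 3, 5026 bases beyond TF, the transferrin gene, on the same strand. TF was listed at 0 on days 0, 1 and 2 and had values of 2, 8, 5, 64, 98, 291 and 3865 on the later days, and 2.30% of the 50-base stretches of the SRPRB transcript also occur in TF transcripts. At day 7 SRPRB was at 152 and TF at 5. The part of TF in the SRPRB values was not tested.

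Within the Sec61 channel, the pore subunit and the small subunits took different courses. SEC61A1, the pore-forming alpha subunit, had values of 501, 598, 697, 734, 1066, 1108, 1108, 1130, 1000 and 1640. It was above day 0 in every later library and by 2-fold from day 5 to day 11 and at day 21, with a log2 change of 1.71 over the course. SEC61B and SEC61G, the beta and gamma subunits, lay between 130 and 206 and between 124 and 187, and their changes of -0.11 and -0.06 were below the spread between days 9 and 11 and turned positive under median-of-ratios scaling. SEC61A2, the other gene for the alpha subunit, had values of 32, 41, 34, 48, 84, 42, 37, 26, 26 and 33, so that it passed 50 only at day 5. SEC62 and SEC63, which assist the channel with proteins that enter after translation, were at 287 and 260 at day 0 and at 542 and 353 at day 21, below 2-fold. SEC61A1 overlaps RUVBL1 on the other strand by 5058 bases. RUVBL1 moved the other way, from 390 to 62 over the course.

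The TRAP complex (SSR1 to SSR4), which sits beside the channel and helps some signal peptides to open it, had SSR1 alone of its 4 genes counted as higher at day 21, a share near the 19.1% of all genes. SSR3, its gamma subunit, had values of 360, 476, 612, 590, 540, 576, 824, 714, 734 and 514. It was highest at day 9 and 2-fold above day 0 only on days 9 and 13. SSR1, the alpha subunit, had values of 266, 245, 364, 374, 434, 474, 384, 410, 356 and 612, and reached 2-fold only at day 21. SSR2 and SSR4 spanned less than 2-fold, with changes of 0.61 and -0.26 from day 0 to day 21.

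None of the 5 signal peptidase genes was counted in any of the steps. SPCS3, a subunit that supports the catalytic one, had values of 826, 1132, 1132, 1439, 1110, 1002, 892, 782, 622 and 781. It was highest at day 3 and fell by 1.21 on the log2 scale from there to day 13. SEC11A and SEC11C are alternative catalytic subunits: SEC11A lay between 309 and 402, and SEC11C had values of 60 to 74 up to day 5 and 34 to 38 from day 7 on. SPCS2 and SPCS1 changed by -0.16 and -0.88 from day 0 to day 21, and SPCS1 lay between 78 (day 21) and 148 (day 7). SEC11A, SPCS2 and SPCS3 turned positive under median-of-ratios scaling over the whole course.

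The protein disulfide isomerases differed in when they were highest. PDIA5, a member of the family found in the ER lumen, had values of 106, 90, 152, 203, 206, 170, 258, 210, 231 and 506. It lay between 170 and 258 from day 3 to day 13 and was 1.13 higher on the log2 scale at day 21 than at day 13, for a change of 2.24 over the course. PDIA3 (ERp57), which works on glycoproteins with calnexin and calreticulin, had values of 1184, 1640, 1555, 1888, 2022, 1640, 1887, 2022, 1640 and 2428. It reached 2-fold only in the last library, and its value of 1640 on days 1, 7 and 13 is a repeated step of the scale. PDIA4 (ERp72) was highest on days 3 and 5 (1492) and lowest on day 13 (790). PDIA6 lay between 1066 and 1492. PDIA3P1, a processed copy, holds 17.6% of the 50-base stretches of PDIA3.

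**Figure D3:**
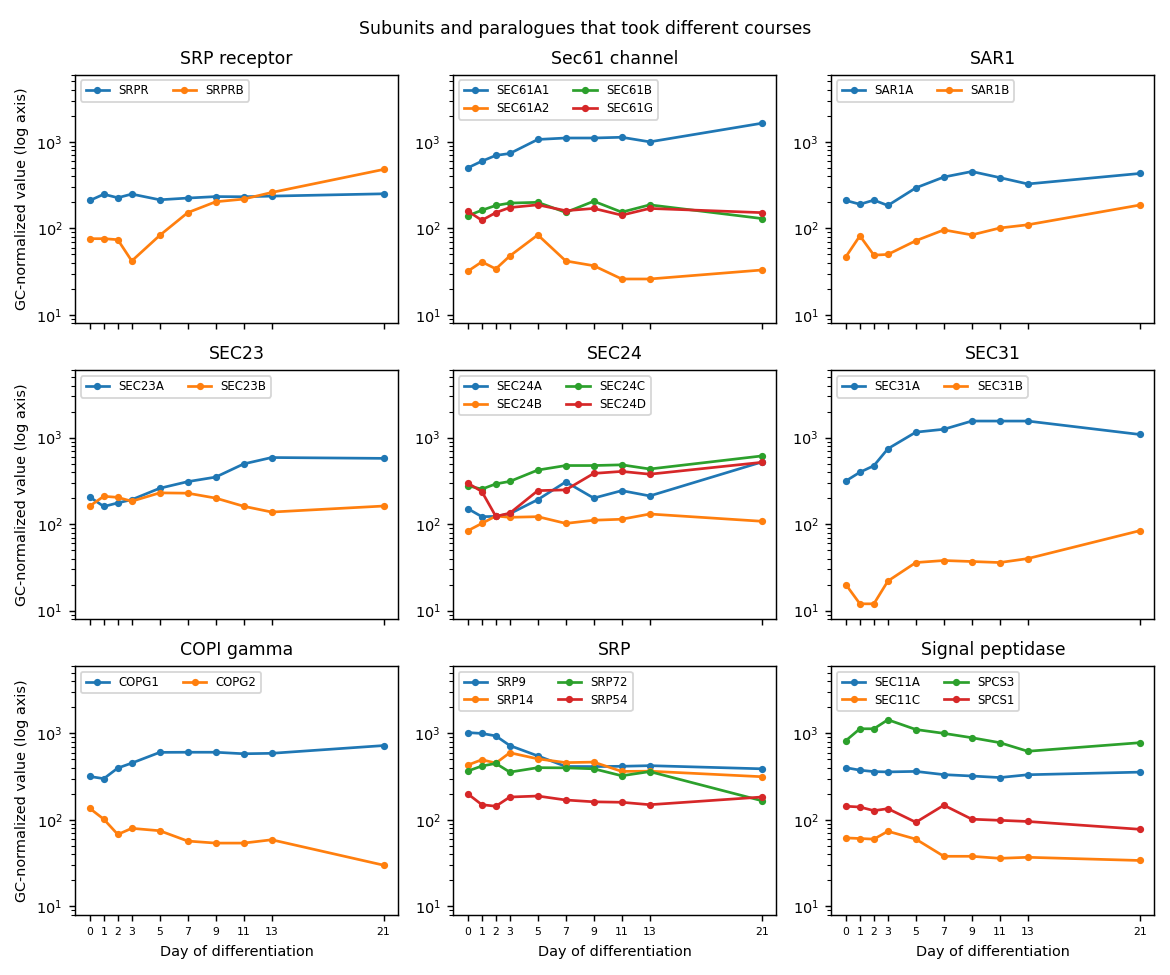
GC-normalized values (log axis) of subunits and paralogues in the 10 libraries by day. SRPR stays between 210 and 251 while SRPRB goes from 76 to 480, SEC23A from 206 to 576 while SEC23B stays between 138 and 230, and COPG1 from 318 to 724 while COPG2 goes from 136 to 30.

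The COPII coat, which buds vesicles from the ER, had 7 of its 13 genes higher at day 21 and 0 lower. SEC31A, which the table places on chromosome 4 (83739814 to 83765613), encodes the outer cage with SEC13 and had values of 316, 398, 474, 744, 1157, 1250, 1556, 1555, 1555 and 1088. It was above day 0 in every later library, with a log2 change of 2.30 from day 0 to its highest value at day 9 and of -0.51 from day 13 to day 21. SEC13, which also belongs to the nuclear pore, had values of 259, 240, 234, 283, 338, 418, 524, 454, 488 and 442. SEC31B, the other cage gene, was at or below 40 until day 13 and at 84 at day 21.

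The inner coat is built from SEC23, which switches SAR1 off, and SEC24, which picks cargo. SEC23A had values of 206, 160, 176, 192, 260, 310, 350, 497, 589 and 576, whereas SEC23B had 162, 210, 204, 184, 230, 228, 200, 161, 138 and 162. From day 0 to day 3 they changed by -0.10 and 0.18, and from day 7 to day 13 SEC23A was higher by 0.92 and SEC23B lower by 0.72. SEC23A is the gene mutated in cranio-lenticulo-sutural dysplasia, in which collagen export is impaired, and SEC23B the gene of congenital dyserythropoietic anaemia type II.

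Of the cargo-binding SEC24 genes, SEC24A had values of 151, 122, 123, 132, 192, 308, 200, 244, 212 and 522, SEC24D had 298, 238, 123, 134, 244, 249, 386, 407, 378 and 518, and SEC24C had 278, 254, 292, 312, 422, 476, 476, 485, 434 and 614. SEC24D was lower by 1.15 on the log2 scale at day 3 than at day 0 and then climbed back, and all 3 genes were highest at day 21. SEC24B stayed between 84 and 131. SAR1A and SAR1B encode the GTPase that starts the coat, and SAR1B is the gene of chylomicron retention disease, in which lipoproteins are not exported. SAR1A had values of 210, 190, 212, 184, 294, 392, 454, 386, 326 and 431, and SAR1B had 47, 82, 49, 50, 72, 96, 84, 101, 110 and 186. SAR1A was highest at day 9 and SAR1B at day 21, and their log2 changes over the course were 1.03 and 1.96. SEC16A, which marks the exit sites, and SEC23IP, which binds SEC23, spanned less than 2-fold, with values of 232 to 372 and 135 to 164. SEC24A and SAR1B are neighbours on chromosome 5 with 15800 bases between them, on opposite strands.

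Among the p24 proteins 5 of 9 were higher at day 21 and 0 lower. TMED9 had values of 428, 382, 497, 604, 980, 1734, 1638, 1554, 1279 and 1214. It was highest at day 7, after a change of 1.52 from day 3, and declined afterwards. TMED3 had values of 99, 109, 86, 100, 206, 120, 213, 182, 252 and 454, and TMED5 had 72, 70, 133, 110, 160, 115, 128, 178, 166 and 260. Both dipped at day 7 and were highest at day 21, with changes of 2.19 and 1.84 over the course. TMED10 (434, 676 and 874 on days 0, 3 and 21) and TMED7 (188, 209 and 383) reached 2-fold only at day 21, and 23.9% of the 50-base stretches of TMED7 also belong to its read-through partner TMED7-TICAM2. TMED4 was highest at day 9 (362, against 180 at day 0) and TMED8 at day 7 (158, against 64). TMED2, which pairs with TMED10, lay between 582 and 1156, just under 2-fold, and TMED1 lay between 55 and 94.

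Of the 7 COPI genes, 4 were higher at day 21 and 1 was lower. COPA, COPB1 and COPB2, the alpha, beta and beta-prime subunits, are large parts of the coat. COPA went through 470, 756, 1107, 1088 and 1044 on days 0, 3, 5, 13 and 21, COPB1 through 364, 540, 805, 982 and 756, and COPB2 through 450, 1022, 1250, 1045 and 957. All 3 were past 2-fold by day 5 and did not double again. COPG1 and COPG2 are alternative gamma subunits: COPG1 had values of 318, 300, 398, 454, 604, 606, 606, 582, 589 and 724, and COPG2 had 136, 102, 68, 80, 75, 57, 54, 54, 59 and 30. They moved in opposite directions, by 1.18 and -2.14 on the log2 scale. COPG2 overlaps MEST, an imprinted gene on the other strand, by 45 bases, and MEST, at 558 before and 2799 after the course, moved opposite to COPG2. COPZ1 lay between 262 and 444 and COPE between 244 and 402, without reaching 2-fold.

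SEC22B, a SNARE that fuses vesicles between the ER and the Golgi, had values of 144, 150, 153, 137, 236, 186, 261, 244, 241 and 419, a log2 change of 1.53. SEC22A stayed under 50 in every library, and 10.5% of its 50-base stretches also belong to transcripts of its neighbour PDIA5. SEC22C lay between 60 and 118, with its highest value at day 3. The SEC14L genes share a prefix with the machinery but belong to a family of lipid-binding proteins. SEC14L2, which binds tocopherol, was at or below 6 up to day 5 and at 15, 20, 24, 52 and 34 on days 7 to 21. SEC14L5 started at 50 and was at or below 11 from day 2 on, SEC14L4 was at 30 or below throughout, and SEC14L1 lay between 178 (day 5) and 410 (days 9 and 11). Without the SEC14L genes 22 of the remaining genes were higher at day 21 and 3 lower.

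The values were then set beside the start of plasma protein gene expression. Of a list of 61 plasma protein genes, 38 were in the table. The first library with a value of at least 50 and at least 4-fold above day 0 was day 3 for 2 of them, day 5 for 6, day 7 for 13, day 9 for 6, day 13 for 4 and day 21 for 4. APOE, SERPING1 and AMBP never passed this limit, with 1129, 139 and 18 at day 0 and 2428, 202 and 74 at day 21. The 6 of day 5 included APOA1, the main protein of high-density lipoprotein, which had 34, 2796 and 4855 on days 3, 5 and 7, APOB (7, 186 and 4856), and AFP (33, 342 and 18734, the highest value of the scale). Between days 5 and 7, TTR, the thyroxine carrier, went from 26 to 3430, and FGB, a fibrinogen chain, from 52 to 4866. ALB passed the limit at day 5 with a value of only 62, and had 65, 168 and 4866 on days 7, 13 and 21. By day 7, 21 of the 38 genes had passed this limit and the median of the list was 4.72 above day 0. The 23 listed genes absent from the table are not in these numbers. At day 0 the median value of the 38 was 2, and 4 of them were at 50 or more. Low genes may be in the table only for their later values, which was not tested.

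The machinery genes were counted over the same days with a limit of 2-fold over day 0. The first such library was day 3 for SEC31A, COPB2 and TMED8, and day 5 for COPA, COPB1, SEC61A1, SEC61A2, TMED3, TMED5 and TMED9. It was day 7 for SEC24A and SAR1B, day 9 for SRPRB, PDIA5, SAR1A, SEC13, SSR3 and TMED4, day 11 for SEC23A and day 13 for SEC14L2. At day 21 another 8 passed it, PDIA3, SSR1, SEC22B, SEC24C, SEC31B, TMED7, TMED10 and COPG1, and 35 never did. By day 5, 15.9% of the machinery and 15.8% of all genes had passed the 2-fold limit, and by day 21, 44.4% of the machinery against 32% of all genes. The shares of all genes again include genes that never reached 50, and the part of expression level in the difference was not tested. Of the 2 steps with the largest rise of the plasma list, with medians of 1.9 from day 3 to day 5 and 2.43 from day 5 to day 7, the machinery moved by a median of 0.17 in the first and -0.01 in the second. Over the step in which ALB went from 168 to 4866, 19 of the 38 plasma genes (50%) were higher and 3 (7.9%) lower. The machinery had 3 of 63 genes higher (4.76%) and 1 lower (1.59%), against 6.21% and 6.58% of all genes.

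Other genes of the route were taken as whole lists, to be read against the 19.1% of all genes higher and 21.2% lower over the course. Of 29 ER chaperones and folding enzymes, 14 (48.3%) were counted as higher over the course and 0 as lower, with a median of 0.97. From day 0 to day 3, 7 (24.1%) were counted as higher, against 8.17% of all genes. HSPA5 (BiP), the main ER chaperone, had 872, 2165, 2796 and 3429 on days 0, 1, 3 and 21. SIL1, its exchange factor, was at 30 and 211 on days 0 and 21, DNAJC3, a co-chaperone, at 68 and 440, and FKBP9, a prolyl isomerase, at 57 and 398. Of 25 genes of the unfolded protein response, 14 (56%) were higher and 1 lower, with a median of 1.23. CREB3L3, a liver transcription factor of the ER, had 1, 114, 268 and 99 on days 3, 7, 13 and 21, and CREB3L1, a relative that acts on matrix genes, 31, 92, 260 and 263. XBP1, a main regulator of secretory capacity, had 231, 509 and 447 on days 0, 13 and 21, so that it passed 2-fold at day 13 and was just under it at day 21, and the table does not separate its spliced form.

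Of the 11 genes of the oligosaccharyltransferase, which adds N-glycans, 3 (27.3%) were higher at day 21 and 0 lower, with a median of 0.75, and 5 were higher under median-of-ratios scaling. STT3B, a catalytic subunit, had 1217, 3868 and 770 on days 0, 3 and 21, while STT3A, the catalytic subunit at the channel, had 374, 376 and 1045. Of 21 cargo and retrieval receptors 5 (23.8%) were higher, a share near that of all genes, and 1 lower. KDELR3, a receptor that returns ER proteins, had 32, 122 and 331 on days 3, 7 and 21, and KDELR2 had 278, 781 and 1002. Of 24 genes listed as COPI partners or for vesicle fusion, with the coat subunit ARCN1 among them, 4 (16.7%) were higher and 0 lower. Under median-of-ratios scaling 8 of them were higher. GBF1, which activates ARF1, went from 136 to 872. Of 21 partners of the translocon 5 (23.8%) were higher and 5 (23.8%) lower, both near the shares of all genes. TRAM1, which adjoins the channel, went from 228 to 1734, and ASNA1 (GET3), which delivers tail-anchored proteins by another route, from 212 to 34.

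Marker genes of other cell types were read on the same days, some of which had high values at day 0 as well. Of 14 stromal genes, collagens among them, 12 were counted as higher over the course and 1 as lower. Of all genes, 19.1% were higher and 21.2% lower. The summed value of the stromal genes lay between 2971 and 3250 on days 0 to 5. It was 6529, 23314, 48447 and 67362 on days 7, 9, 13 and 21, with LUM listed at 0 on days 0 to 3. The even sum up to day 5 hides opposite changes within the list. From day 0 to day 3, 3 of the 14 genes were counted as higher and 2 as lower, against 8.17% and 6.68% of all genes. Over those days THY1 changed by -3.87 and COL5A1 by 3.52 on the log2 scale. Collagen passes through the same coats as plasma proteins, but the stromal list is not limited to collagens. By day 5, 5 of its 14 genes were past 4-fold, TAGLN and PDGFRA among them, and 13 by day 11. Of 8 red cell genes, 7 were higher at day 21, against 19.1% of all genes. The sum of the 8 was 5, 5741 and 2800 on days 0, 13 and 21. The 5 endothelial genes found summed to 667, 762, 443, 2060 and 1380 on days 0, 3, 7, 13 and 21. Of these 5, 2 were higher at day 21, against 19.1% of all genes. Of the macrophage markers 2 of 7 were found, CD68 and PTPRC, and both were counted as higher from day 13 to day 21, against 6.21% of all genes. CD68 had 0, 50 and 259 on days 0, 13 and 21. PTPRC had 39, 0 and 65, so it was not counted as higher than day 0. The sum of the 6 pluripotency genes fell from 12133 at day 0 to 98 at day 21, with SOX2 at 0. The part of such cells in the values of the machinery was not tested, and in bulk libraries a change in the number of cells of a type and a change in RNA per cell cannot be told apart.

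The promoters of the machinery were searched for elements of the unfolded protein response. The first was the UPRE, TGACGTGG, read on both strands in the 250 bases before and 50 bases after each RefSeq start site (GRCh38.p14), where 57 of the 63 genes had a promoter (all but SRPR, SEC24D, TMED4, TMED9, PDIA3 and SPCS1) and a gene with several start sites was counted once. It was found in 10 of the 57 (17.5%), in 0.927% of 27305 genes with a promoter and in 1.27% of the genes of the table. Of the machinery genes counted as higher over the course, 5 of 20 held it, and of the others 5 of 37. Its core, ACGTGG, which every UPRE contains, was in 30 of the 57 (52.6%), against 11.6% of all genes and 16.0% of the genes of the table, and in 15 of the 20 against 15 of the 37. The ERSE, CCAAT and CCACG with 9 bases of any kind between them, was in 1 of the 57 (PDIA6) and in 5 of 27 promoters of ER chaperones and folding enzymes, HSPA5 and HSP90B1 among them, against 0.0916% of all genes and 0.145% of the genes of the table. The ERSE-II, ATTGG and CCACG around 1 base of any kind, was in 0 of the 57 and 2 of the 27, against 0.0696% and 0.145%, and the CRE, TGACGTCA, in 0 of the 57 and 2.25% of all genes with a promoter. The UPRE was in 3 of 27 promoters of ER chaperones and folding enzymes (11.1%) and its core in 12 (44.4%). For cargo and retrieval receptors the numbers were 1 (5.88%) and 6 (35.3%) of 17. Plasma protein promoters held the UPRE in 0 of 27 and the core in 4 (14.8%). A match is a description of letters and no site of binding.

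The 8 stretches of 100 bases shown here are those in which a whole match lies before the start site, because they let the element be compared between the complexes. Capitals mark the match, the ERSE in PDIA6 and the UPRE in the others, which reads CCACGTCA where it lies on the other strand. They lie at chr2:10812812-10812911 (PDIA6, minus strand), chr11:14499812-14499911 (COPB1, minus), chr3:139389790-139389889 (COPB2, minus), chr5:134648560-134648659 (SEC24A, plus), chr3:169966707-169966806 (SEC62, plus), chr5:112861129-112861228 (SRP19, plus), chr3:156554126-156554225 (SSR3, minus) and chrX:153794493-153794592 (SSR4, plus).
PDIA6: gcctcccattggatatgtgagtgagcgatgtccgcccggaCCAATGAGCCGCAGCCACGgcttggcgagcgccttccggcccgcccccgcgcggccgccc
COPB1: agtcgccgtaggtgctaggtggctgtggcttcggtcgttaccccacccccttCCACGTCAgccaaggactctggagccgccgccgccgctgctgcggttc
COPB2: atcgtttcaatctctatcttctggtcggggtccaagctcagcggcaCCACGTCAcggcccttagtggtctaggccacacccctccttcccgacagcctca
SEC24A: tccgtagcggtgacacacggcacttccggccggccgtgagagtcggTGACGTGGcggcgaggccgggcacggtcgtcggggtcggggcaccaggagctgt
SEC62: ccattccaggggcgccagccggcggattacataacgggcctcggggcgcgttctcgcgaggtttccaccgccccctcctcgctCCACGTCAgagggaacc
SRP19: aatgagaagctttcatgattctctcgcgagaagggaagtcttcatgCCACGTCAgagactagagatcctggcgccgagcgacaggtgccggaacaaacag
SSR3: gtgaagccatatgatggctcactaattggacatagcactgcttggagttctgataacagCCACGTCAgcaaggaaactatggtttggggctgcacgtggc
SSR4: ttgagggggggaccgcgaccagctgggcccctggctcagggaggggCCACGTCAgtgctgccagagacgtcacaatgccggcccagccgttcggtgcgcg
The match began 179 bases before the start in SEC24A, 48 in COPB1, 41 in SSR3 and 17 in SEC62, at no shared distance. The log2 changes over the course were 1.78 for SEC24A, 1.09 for COPB2, 1.05 for COPB1, 0.91 for SEC62, 0.51 for SSR3, -0.26 for SSR4 and -0.50 for SRP19. COPA and SEC16A held it after the start site and SEC23A across it, and COPB2, with more than 1 annotated start site, held a further match across or after the start depending on which is used.

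Length and base content of the transcripts were set beside the changes. Over the 62 machinery genes with a transcript in GENCODE release 29, Spearman's rho between mean transcript length and the log2 change over the whole course was 0.21, and for GC content it was 0.00. Over 11961 genes of the table it was 0.10 and 0.05. All of these genes share the same libraries, and the values are descriptions. The 39 machinery genes shorter than the median length of all genes had a median change of 0.40 and the 23 longer ones 0.80, against -0.26 and 0.00 for all genes. Shared 50-base stretches were also found for SEC31B (22.1% of its transcript), COPE (19.8%), SPCS2 (17.3%), SRP19 (15.8%), SEC14L2 (12.5%) and COPB1 (10.4%), so that their values are less certain. The part of transcript length in the difference between the SRP and the coats was not tested.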

How the data were processed

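Total RNA of H1 cells was sequenced on a MiSeq from TruSeq RNA libraries, whose counting is not stated to use strand, and per the labels 1 library was made for each of 10 days. The authors aligned reads with Bowtie2 v2.2.0 to an Ensembl v76 transcriptome (named mm10 in the methods, with hg19 also in the submitters' processing notes), quantified them with RSEM v1.2.17 and GC-normalized them with EDASeq. The deposited values are scores, whole numbers on a distribution the libraries share, for 12125 genes; the methods give an average depth over the libraries only, so the depth of each library is unknown, and the build of the table's intervals is not named in it. Columns were matched to samples by day. Changes are differences of log2(value + 1), with no filter on low values except a larger value of at least 50 for counts. No test between single libraries was made. Percentages of all genes have the 12125 genes as denominator, including low ones. Python 3.11.15, numpy 2.4.6, pandas 2.3.3, scipy 1.17.1 and matplotlib 3.10.9 were used. The counting was tested on simulated data. List genes were matched by symbol or, failing that, by Ensembl ID; promoters are from RefSeq (GRCh38.p14), and shared 50-base stretches were found with the longest coding transcript of each gene in GENCODE release 29. Every member is named by role, with values where its span was at least 2-fold and its highest value at least 50; in other lists the genes named were chosen from the largest changes or after their values were seen. The genes, lists and motifs were chosen with earlier results of these data known. Alternatives were other pseudocounts, scalings, filters, folds, gene sets and neighbouring libraries. Protein sequences were not used here.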

Additional observations from a re-analysis of the deposited data

How the results depend on the processing

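No paired analysis was possible because each day has 1 library. Of 155 alternative values computed for the counts, medians and the plasma protein dating, 128 were kept and 27 moved. To be kept, a count had to lie within 1.5 times the reported count and a median within 0.11 of the reported median. The 0.11 is the median absolute difference of the 63 genes between days 9 and 11. A change of direction was looked for only in medians above 0.11 in size, and 0 were found. Counts and the medians from day 7 to 13 and from day 13 to 21 could not show one. At 4-fold, the number higher was 0 from day 0 to 3, 0 from day 3 to 7, 0 from day 7 to 13, 0 from day 13 to 21 and 4 from day 0 to 21, and the number lower 1, 0, 0, 0 and 2. From day 0 to 3, the number higher was 0 with day 2 in place of day 3; the number lower was 1 with median-of-ratios scaling, without the SEC14L genes and with a larger value of at least 200. From day 3 to 7, the number higher was 1 with day 5 in place of day 7, and the number lower was 1 with a larger value of at least 10 and with day 2 in place of day 3. From day 7 to 13, the number higher was 1 without the SEC14L genes, 1 at a larger value of at least 200, 4 with day 5 in place of day 7 and 0 with day 11 in place of day 13, and the number lower was 1 at a larger value of at least 10 and with day 5 in place of day 7. From day 13 to 21, 5 were higher and 0 lower with day 11 in place of day 13. From day 0 to 21, the number lower was 2 with median-of-ratios scaling and at a larger value of at least 200, the number higher was 13 with day 13 in place of day 21 (an alternative chosen after seeing the data), and the median was 0.70 with median-of-ratios scaling. Fewer genes can pass a stricter fold or filter by construction, and for the other changes the cause was not tested. Apart from median-of-ratios scaling and day 13 in place of day 21, the shares of all genes were not computed for the alternatives. The number of plasma protein genes dated to day 7 or before (21) was 14 at a value of at least 200, on the limit of 1.5 times. It was 20 at 8-fold and 21 under the rest of the 6 alternatives run. The single library per day limits every value above, and the depth of each library is not given in the sources used here.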
